A study of Mus musculus with 8 samples.

Results

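Caveolae are small flask-shaped pits of the plasma membrane, and 7 genes of these pits and of the diaphragm that spans some endothelial openings were followed in the microvessels of newborn mouse brains. The genes were Plvap, Cav1, Cav2, Cavin1, Cavin2, Cavin3 and Ehd2, and every probe set annotated to one of them alone was taken, 16 of the 45101 probe sets on the array. Of these, 13 were bright enough to test, and each of the 7 genes kept at least 1. RNA was measured on 8 one-colour Affymetrix arrays, 1 for each brain. The mutants, 4 brains, were knock-in for the D849V form of PDGFRb, the growth factor receptor of pericytes, which is active all the time. The controls, 4 brains, had wild-type PDGFRb. All mice were at postnatal day 1 and on a background labelled 129S/J mixed; whether the mutants carried 1 or both copies of the allele, and whether a Cre driver restricted it, is not given in the sources used here. In both groups, vessel fragments with their attached pericytes were caught from dissociated brain on magnetic beads bearing an antibody against PECAM, an endothelial surface protein.

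Caveolin-1 inserts into the inner membrane leaflet and builds the caveola, caveolin-2 joins it in mixed oligomers, and the cavins form a coat around the neck and bulb. The ATPase Ehd2 sits at the neck and holds the pit at the surface. Plvap is the protein from which the diaphragms of caveolae, transendothelial channels and fenestrae are built. In the brain, mature barrier endothelium has few caveolae and loses Plvap as Wnt and beta-catenin signalling matures the barrier, while the fenestrated capillaries of the choroid plexus keep it; Mfsd2a, a lipid transporter of barrier endothelium, holds caveolar transport down. Cav1 and the cavins are also made in pericytes, smooth muscle cells and fibroblasts, so these arrays read them from a mixture of cells.

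The deposited values are log2 GCRMA values per probe set, with a floor at 2.18, and a difference of 1 is a change by a factor of 2. Some dim probe sets instead held a fixed value above that floor on most arrays. Examples are Cavin1 1453891_at at 4.09 and the probe set of Pacsin1 at 4.52. Both were tested, so being tested does not by itself show signal. Over all probe sets, arrays of the same group correlated at 0.988 to 0.995 (Pearson) and arrays of different groups at 0.977 to 0.991. All 23 endothelial markers were bright enough to test and none lay at the floor. The same held for all 17 pericyte, 15 fibroblast and meningeal, 11 neuron and 10 astrocyte and radial glia markers and for the 10 choroid plexus markers with a probe set, and Ttr of the choroid plexus read 16.29 to 16.44 in mutants and 16.16 to 16.49 in controls. Each gene was represented by its brightest probe set, and mutants were compared with controls by limma over 11446 genes with Benjamini-Hochberg adjustment and a threshold of 0.05. Of all tested genes 4.58% passed in either direction, 1.92% lower and 2.66% higher in mutants, and the median difference over them was -0.11. These are 220 genes lower and 304 higher, against 115 and 336 with arrays centred on their medians.

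Of the 7 genes, Cavin2 fell in mutant microvessels and none rose in limma, and at an unadjusted p under 0.05 there were 3, all lower. Over all tested genes 15.3% were lower at that unadjusted p and 20.6% passed it in either direction. Cav1 and Cav2 were lower on all 4 mutant arrays than on any control array without passing the adjusted test, and Plvap, Cavin1, Cavin3 and Ehd2 overlapped between the groups. The 1 call among 7 genes stands beside 1.92% called lower among all tested genes, and the 3 genes with separate groups beside 10.4% of all tested genes lower without overlap. The 7 genes were chosen with earlier results of these data known, so these shares only describe them. All 7 fitted differences were negative, as were 69.1% of those of all tested genes, and their median was -0.14. On these bulk samples, fewer cells of a type and less RNA per cell cannot be told apart.

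**Figure D1:**
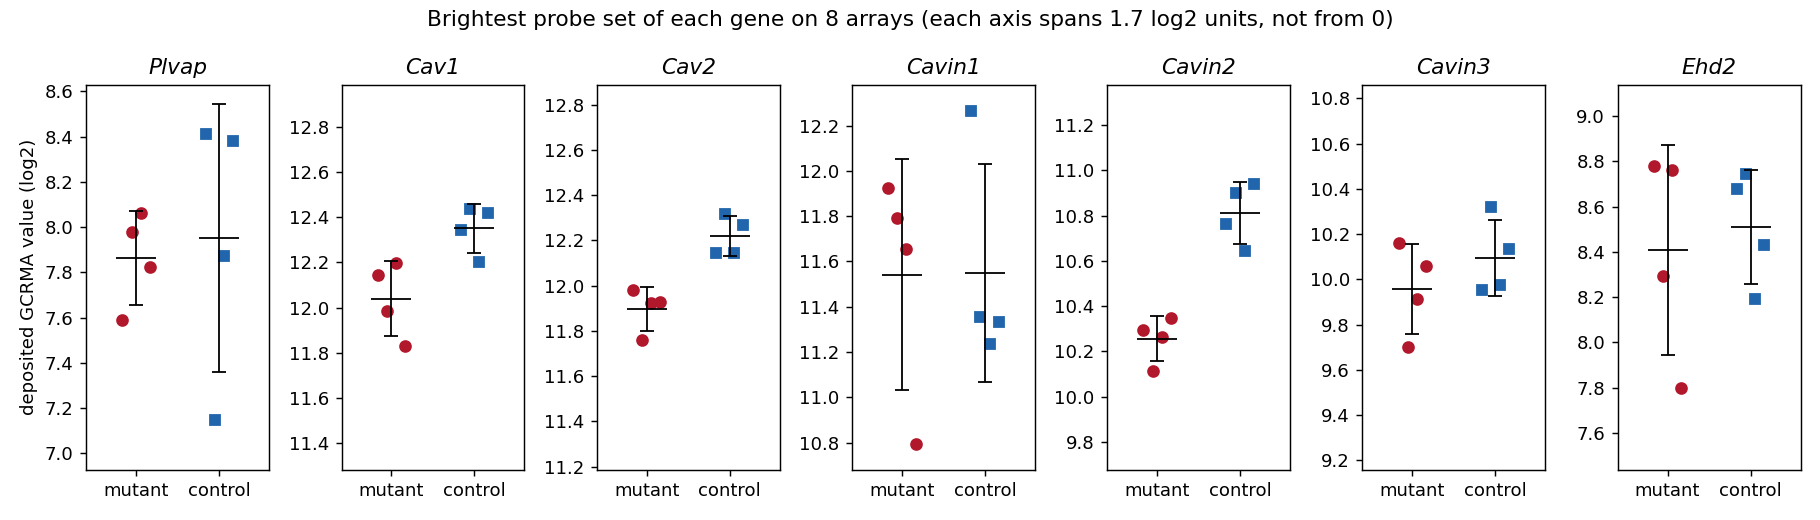
Log2 GCRMA value of the brightest probe set of each of the 7 genes on the 4 mutant arrays (red circles) and the 4 control arrays (blue squares), with the group mean and SD in black; each panel has its own axis of equal span. Cav1, Cav2 and Cavin2 separate the groups, while mutant replicate 4 is lowest for Cavin1 and Ehd2 and control replicate 2 is lowest for Plvap.

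Cav1 and Cav2, the caveolin genes, lie next to each other on chromosome 6 in the RefSeq gene order. RefSeq start windows of GRCm38.p6, from 250 bases before to 50 bases after the transcript start, were held for 5 of the 7 genes, and those of Cav1, Cav2 and Cavin2 are shown because these are the genes whose groups did not overlap. For Cav1, which has 2 annotated starts, the one nearer Cav2 is given. Capitals mark CG pairs, the sites of CpG methylation. The windows are chr6:17306085-17306384 on the plus strand for Cav1, chr6:17280935-17281234 on the plus strand for Cav2 and chr1:51288876-51289175 on the plus strand for Cavin2.
Cav1: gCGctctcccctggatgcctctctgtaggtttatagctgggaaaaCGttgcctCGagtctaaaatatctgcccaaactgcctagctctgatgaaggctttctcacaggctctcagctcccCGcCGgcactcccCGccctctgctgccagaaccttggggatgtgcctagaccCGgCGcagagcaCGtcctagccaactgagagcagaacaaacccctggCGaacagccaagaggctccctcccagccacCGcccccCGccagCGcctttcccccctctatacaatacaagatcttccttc
Cav2: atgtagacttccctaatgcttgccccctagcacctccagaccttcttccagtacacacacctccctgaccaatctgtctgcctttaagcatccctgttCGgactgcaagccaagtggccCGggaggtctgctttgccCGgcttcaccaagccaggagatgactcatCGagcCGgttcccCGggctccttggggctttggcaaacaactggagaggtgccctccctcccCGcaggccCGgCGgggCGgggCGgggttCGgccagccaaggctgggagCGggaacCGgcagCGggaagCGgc
Cavin2: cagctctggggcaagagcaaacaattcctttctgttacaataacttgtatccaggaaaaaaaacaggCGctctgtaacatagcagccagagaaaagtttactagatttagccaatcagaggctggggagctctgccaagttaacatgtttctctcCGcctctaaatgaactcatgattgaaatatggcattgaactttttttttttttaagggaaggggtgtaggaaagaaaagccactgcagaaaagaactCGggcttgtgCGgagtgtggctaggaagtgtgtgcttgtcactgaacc
The Cav1 window held 13 CG pairs at 59.3% GC and the Cav2 window 16 at 64.3%. The Cavin2 window held 4 CG pairs at 43.3% GC, against medians of 7 pairs and 52.7% over 32851 windows of the same length. On both strands, the interferon-stimulated response element (GAAA, any 2 bases, GAAA), the TCF/LEF words CTTTGAA and CTTTGTT and the ETS word CCGGAAG were searched in all 7 windows of the 5 genes. No match was found, while 3.44%, 10.6% and 8.86% of all windows hold a match to the interferon, TCF/LEF and ETS motifs in that order; this says only that these letters are not in these windows.

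Cav1, the principal caveolin of endothelium, read 12.14, 11.99, 12.20 and 11.83 on the mutant arrays, against 12.34, 12.44, 12.20 and 12.42 on the control arrays. The groups did not overlap, but the highest mutant and the lowest control array, at 12.198 and 12.203, nearly touched. The difference was -0.31 (SE 0.107, 95% interval -0.55 to -0.07), or 0.807-fold, and did not pass (limma adjusted p = 0.154). Cav1 had a single probe set.

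Cav2, whose product needs caveolin-1 to reach the plasma membrane, gave almost the same difference with a smaller spread. Its bright probe set read 11.98, 11.76, 11.92 and 11.93 on the mutant arrays, against 12.15, 12.32, 12.14 and 12.27 on the control arrays. Every mutant array lay below every control array. The difference was -0.32 (SE 0.0866, 95% interval -0.52 to -0.12), or 0.801-fold, and missed the threshold (limma adjusted p = 0.084). It passed with array weights (adjusted p = 0.0086) and with a trended, robust variance model (adjusted p = 0.0409), both in limma. A second Cav2 probe set, 1425955_at, read 3.79 on all mutant arrays and on 3 control arrays and was not tested.

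Cavin2, a coat protein that shapes caveolar membrane, read 10.29, 10.12, 10.26 and 10.35 on the mutant arrays, against 10.76, 10.90, 10.64 and 10.94 on the control arrays. The lowest control array exceeded the highest mutant array by more than the SD of either group. The means were 10.26 ± 0.10 for the mutant group and 10.81 ± 0.14 for the control group (SD, n = 4 each). The difference was -0.56 (SE 0.098, 95% interval -0.78 to -0.33, limma adjusted p = 0.016), or 0.68-fold with an interval of 0.582 to 0.795.

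The fall of Cavin2 rested on 1 of its 3 probe sets. Probe set 1416779_at read 10.57, 9.92, 9.98 and 9.39 in mutants, against 10.61, 10.20, 9.99 and 10.03 in controls, which differ by -0.24 (adjusted p = 0.659 in the limma fit of all 22310 tested probe sets). Probe set 1443832_s_at read 10.06, 9.68, 9.63 and 9.21 in mutants, against 10.40, 10.08, 9.53 and 9.69 in controls, a difference of -0.28 (limma adjusted p = 0.58). Both pointed the same way as the brightest, with groups that overlapped. The brightest, 1416778_at, also passed in that fit (limma adjusted p = 0.0264), where 2.63% of probe sets passed. The call of Cavin2 ended when its probe sets were averaged (-0.36, limma adjusted p = 0.267), with arrays centred on their medians (-0.47, 0.0668) and with arrays centred on their endothelial marker mean (-0.35, 0.428). It ended as well without mutant replicate 3 (-0.56, limma adjusted p = 0.0617) and without control replicate 4 (-0.51, 0.059).

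**Figure D2:**
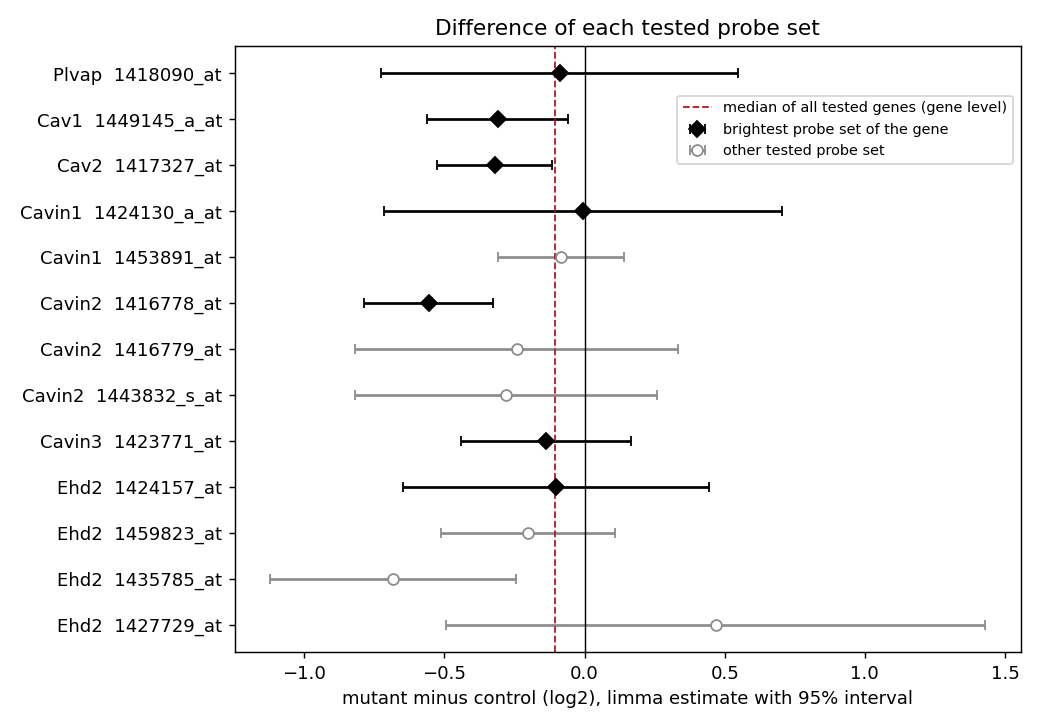
Mutant minus control difference in log2 units for the 13 tested probe sets, with 95% intervals from the limma fit over all tested probe sets; black diamonds mark the brightest probe set of a gene and open circles the others. The intervals of Cav1, Cav2, the brightest Cavin2 and 1 Ehd2 probe set lie wholly below 0, and 1 Ehd2 probe set has a positive estimate.

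Cavin1, the coat protein without which caveolae do not form, showed no separation. Its bright probe set read 11.93, 11.79, 11.65 and 10.80 on the mutant arrays, against 12.27, 11.36, 11.24 and 11.33 on the control arrays. The spread within each group came from 1 array, the low mutant replicate 4 and the high control replicate 1. The difference was -0.01 (95% interval -0.70 to 0.69, limma adjusted p = 0.996), so that changes from 0.614-fold to 1.62-fold lie within the interval. Without mutant replicate 4 it was 0.24 and without control replicate 1 it was 0.23, neither passing (limma adjusted p = 0.59 and 0.659). Of the other probe sets of Cavin1, 1453891_at read 4.09 on 6 of the 8 arrays and 1421431_at lay within 0.5 of the floor on all 8.

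Cavin3, a coat protein that also binds protein kinase C delta, read 10.16, 9.70, 9.91 and 10.06 on the mutant arrays, against 9.95, 10.32, 9.98 and 10.13 on the control arrays. The groups overlapped on part of their range, and the difference was -0.14 (95% interval -0.43 to 0.16, limma adjusted p = 0.574). Expressed as a fold, the interval ran from 0.74 to 1.12. The fitted fall of Cavin2, 0.68-fold, lies outside it, but the interval of Cavin2, 0.582 to 0.795, overlaps it. A difference between Cavin3 and Cavin2 was not tested.

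Ehd2, the ATPase of the caveolar neck, had 5 probe sets that did not tell a single story. The brightest, 1424157_at, read 8.78, 8.29, 8.76 and 7.80 on the mutant arrays, against 8.68, 8.74, 8.19 and 8.43 on the control arrays. The groups overlapped, and the difference was -0.10 (95% interval -0.64 to 0.43, limma adjusted p = 0.835). Without mutant replicate 4 the difference was 0.10 (limma adjusted p = 0.763). Probe set 1435785_at read 5.38, 6.07, 6.04 and 5.82 in mutants, against 6.63, 6.52, 6.14 and 6.76 in controls. Its groups did not overlap, as in 11.3% of all tested probe sets, and its difference of -0.68 did not pass (SE 0.191, limma adjusted p = 0.136). Probe set 1459823_at differed by -0.20 (limma adjusted p = 0.487) and 1427729_at by 0.47 (limma adjusted p = 0.606), while 1424158_at lay at the floor on all 8 arrays.

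**Figure D3:**
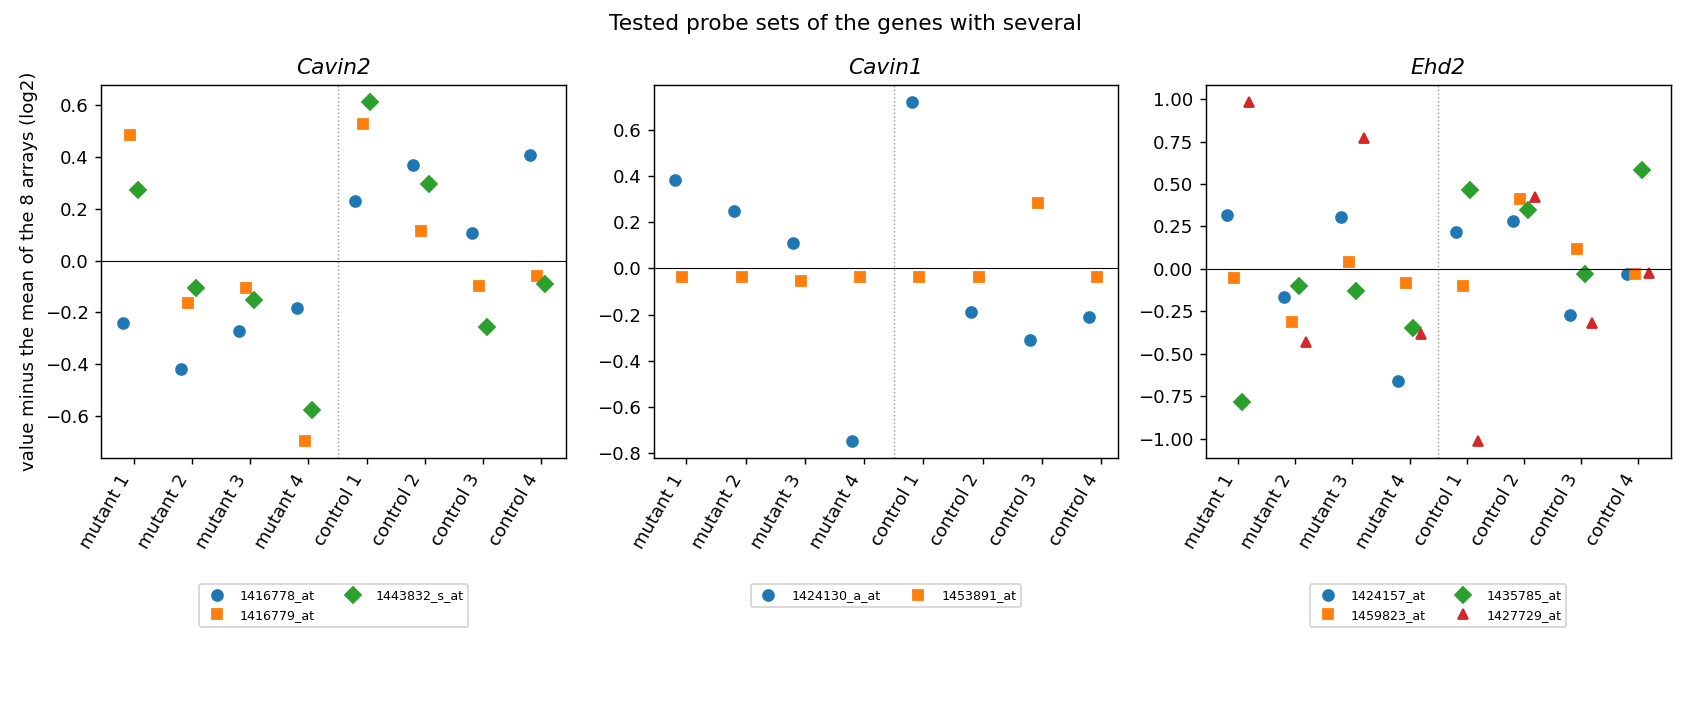
Tested probe sets of Cavin2, Cavin1 and Ehd2 on each array, as log2 value minus the mean of that probe set over the 8 arrays, mutants left of the dotted line. For Cavin2 the brightest probe set (blue) is below 0 on all mutant arrays and above 0 on all control arrays, whereas the other probe sets are highest on mutant replicate 1 and control replicate 1 within their groups.

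Plvap, the diaphragm protein recognised by the MECA-32 antibody, read 7.59, 7.98, 8.06 and 7.82 on the mutant arrays, against 8.41, 7.15, 7.87 and 8.38 on the control arrays. The control values spanned the mutant values on both sides, and control replicate 2 was the lowest of all 8 arrays. The means were 7.86 ± 0.21 for the mutant group and 7.95 ± 0.59 for the control group (SD, n = 4 each). The difference was -0.09 (SE 0.274, limma adjusted p = 0.88), or 0.94-fold with a 95% interval of 0.609 to 1.45. A rise to more than 1.45-fold or a fall to less than 0.609-fold thus lies outside the interval, and smaller changes could not be resolved. Without control replicate 2 the difference was -0.36 and without control replicate 1 it was 0.06, neither passing (limma adjusted p = 0.301 and 0.925).

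Within the groups, Plvap moved with the choroid plexus markers. The mean of the 10 tested choroid plexus markers, among them the transthyretin gene Ttr and the folate receptor gene Folr1, was 8.39, 9.52, 9.50 and 9.34 on the mutant arrays, against 10.08, 8.36, 9.70 and 9.96 on the control arrays. The low arrays for this list, mutant replicate 1 and control replicate 2, were also the lowest for Plvap in their groups. Over the 8 arrays, the deviations of Plvap and of this list from their group means had a Pearson r of 0.933 and a Spearman rho of 0.952, and r was 0.963 without the 2 arrays farthest from the median of the list. Of the 12 other gene lists this one had the highest r with Plvap, and the endothelial markers were at -0.04. Next came the neuron markers at 0.819, which fell to 0.212 without the 2 arrays farthest from their median. The microglia and macrophage markers were at 0.708 (rho 0.81), and 0.522 after the same step. Other coat and scission genes of caveolae were at 0.66 (rho 0.833), and rose to 0.892 after it, so the choroid plexus list was not alone. None of the 10 choroid plexus markers passed between the groups in limma (0 at an unadjusted p under 0.05), none lay at the floor in either group, and their median difference was -0.35. With the mean of the list as a covariate, an alternative added after seeing the data, the Plvap difference was 0.12 (SE 0.126, limma adjusted p = 0.631). These correlations describe 8 arrays that share cells from whole brains, and the part of choroid plexus tissue in the Plvap signal was not tested.

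The brightest probe sets of Ehd2, Cavin1 and Cav1 varied instead with the endothelial markers. The mean of the 23 endothelial markers was 11.56, 11.48, 11.49 and 11.12 on the mutant arrays, against 11.73, 11.67, 11.51 and 11.56 on the control arrays, so that mutant replicate 4 was the lowest of all. The deviations from the group means gave r = 0.919 for Ehd2, 0.887 for Cavin1 and 0.767 for Cav1 over the 8 arrays (rho 0.833, 0.952 and 0.69). Pecam1 is in the list and was highest on the same arrays as Cavin1, mutant replicates 1, 2 and 3 and control replicate 1. The r of Cavin1 with the list without Pecam1 was not computed. Without the 2 arrays farthest from the median of the list, mutant replicate 4 and control replicate 3, r was 0.669 for Ehd2, 0.741 for Cavin1 and 0.01 for Cav1. The relation of Cav1 to the list thus rested on those arrays. For Cav2 and Cavin3 r was -0.01 and -0.07. The Cavin2 probe sets split, at -0.18 for the brightest and 0.899 and 0.881 for the other two. So did those of Ehd2, where 1459823_at, 1435785_at and 1427729_at had r of 0.003, 0.022 and 0.374 with the list.

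**Figure D4:**
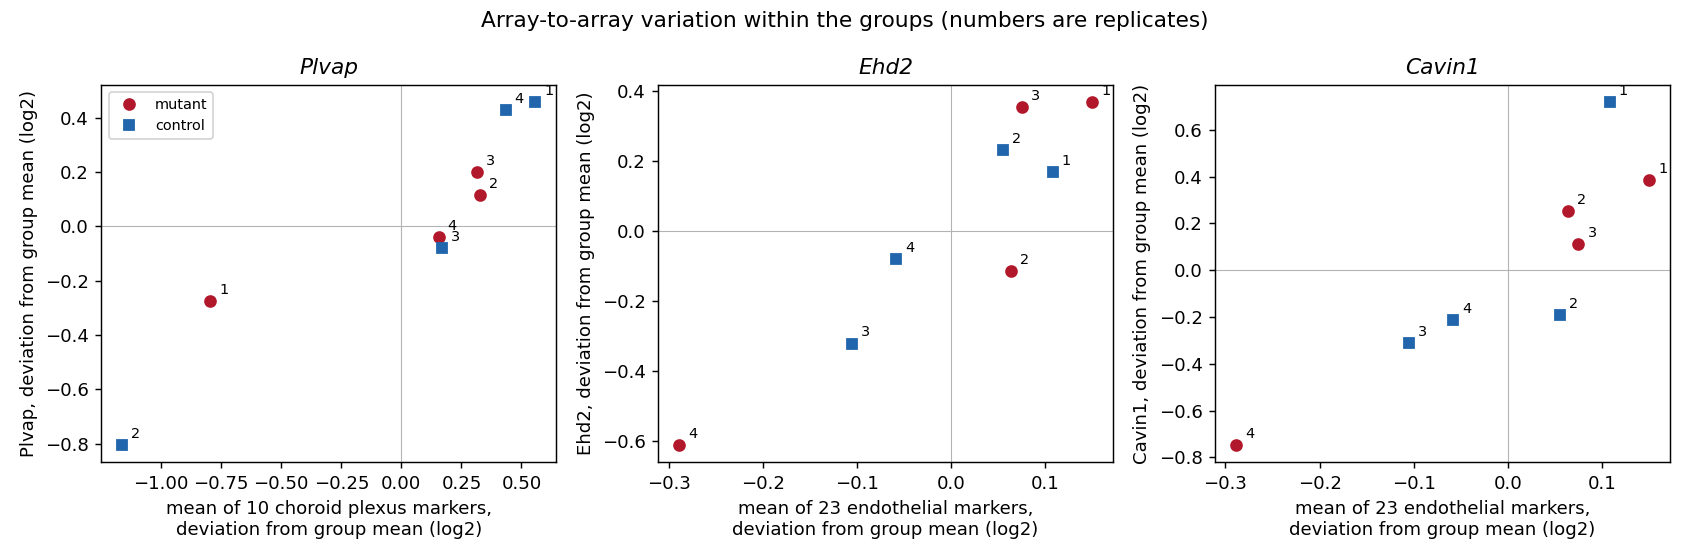
Deviation of Plvap from its group mean against that of the mean of 10 choroid plexus markers, and of Ehd2 and Cavin1 against that of the mean of 23 endothelial markers, in log2 units, for 4 mutant (red circles) and 4 control (blue squares) arrays numbered by replicate. Plvap lies close to a line through all 8 arrays (r = 0.933), and mutant replicate 4 is lowest on both axes for Ehd2 and Cavin1.

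Among themselves, the 7 genes did not vary as a unit. Deviations from the group means had r = 0.952 for Cav2 with Cavin3, 0.922 for Cav1 with Ehd2 and 0.868 for Cav2 with Cavin2, but 0.491 for the neighbours Cav1 and Cav2 and -0.647 for Plvap with Cavin3 (8 arrays each). By the same measure over all tested genes, the closest to Plvap were Cab39l (r = 0.987), Ncbp2 (0.981), Hk2 (0.979), Mlf1 (0.976) and Rcor1 (0.971). The closest to Cav1 were Ldha (0.968), Hes1 (0.964), Zcchc10 (0.957), Abhd6 (0.951) and Bcap29 (0.949). With 11446 genes and 8 arrays, coefficients of this size are the top of a long list.

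Set against the endothelial markers of the same array, the differences of Cavin2, Cav1 and Cav2 were smaller, at -0.35, -0.11 and -0.12. This scaling moved the median difference of all tested genes by 0.20, to 0.10. Cavin2 minus the endothelial mean was -1.27, -1.36, -1.23 and -0.77 on the mutant arrays, against -0.96, -0.77, -0.87 and -0.62 on the control arrays, and the groups then overlapped. Cav1 minus the endothelial mean was 0.63 ± 0.10 on mutant and 0.73 ± 0.10 on control arrays, and Cav2 minus it was 0.48 ± 0.22 and 0.60 ± 0.13 in the same order (SD, n = 4 each). On this scale Plvap, Cavin1, Cavin3 and Ehd2 had positive differences, of 0.12, 0.20, 0.07 and 0.10, and no gene of the 7 passed. With the endothelial mean as a covariate instead, an alternative added after seeing the data, Cavin2 differed by -0.58 and passed (limma adjusted p = 0.0334). The endothelial markers themselves had a median difference of -0.23, with the transcription factors Erg (-0.63, limma adjusted p = 0.00561) and Sox17 (-0.48, 0.0194) lower and none of the 23 higher; 1 was lower without mutant replicate 3 or without control replicate 2, 3 or 4. With array weights 7 of the 23 were lower and 1 higher, and with the replicate number as a block none passed in limma. Pecam1, the target of the beads, differed by 0.62 and did not pass (limma adjusted p = 0.561). It read 11.09, 10.96, 10.99 and 9.09 on the mutant arrays, against 11.27, 9.56, 9.29 and 9.53 on the control arrays. Mutant replicates 1, 2 and 3 and control replicate 1 were thus high, a split that crosses the groups. The same arrays were the highest for the bright probe set of Cavin1, and Pecam1 is part of the endothelial mean.

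Of 16 other coat and scission genes of caveolae and related pits, 12 were tested and none passed in limma, with 1 at an unadjusted p under 0.05, and their median difference was -0.09. In limma 2 were lower and 2 higher with array weights, 1 lower and 1 higher with the endothelial covariate, and 1 higher without mutant replicate 4. The gene at an unadjusted p under 0.05 was Itsn2, an endocytic scaffold (-0.35, limma adjusted p = 0.0951), whose groups did not overlap. The brightest were Ehd1, a paralogue of Ehd2 at recycling endosomes (10.30 in mutants, 10.30 in controls, differing by 0.01), and the scaffold Itsn1 (9.48 and 9.58, a difference of -0.10), with limma adjusted p of 0.971 and 0.786. The muscle forms Cav3 and Cavin4 lay at the floor on all 8 arrays, and Dnm1, the neuronal dynamin, was under the filter. Pacsin1 was tested but held a flat low value, 4.52, on most arrays.

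Among genes of endothelial vesicle traffic and permeability, 3 of 25 tested fell and none rose, or 12%, against 1.92% of all tested genes lower. The list was chosen with earlier results of these data known, so this share describes it and gives no independent support. The insulin receptor gene Insr was 9.40, 9.56, 9.59 and 9.44 on the mutant arrays, against 9.88, 10.24, 10.31 and 9.99 on the control arrays, a difference of -0.61 (SE 0.116, limma adjusted p = 0.0236). The prostaglandin transporter Slco2a1 differed by -0.63 (SE 0.122, limma adjusted p = 0.0246). Tfrc, the transferrin receptor that carries iron across barrier endothelium by clathrin-coated vesicles, differed by -0.63 (SE 0.13, limma adjusted p = 0.0311). The groups of these 3 genes did not overlap. This held for 7 of the 25 tested, Nos3 among them, against 10.4% of all tested genes lower without overlap. The count of 3 was 0 without mutant replicate 1, 3 or 4 or control replicate 2 or 3, 1 without control replicate 1 or 4 and 2 without mutant replicate 2. It was also 0 without the filter, with arrays centred on their medians or endothelial marker mean, with probe sets averaged, with the replicate number as a block and at a threshold of 0.01. It was 5 with the trended, robust model, 8 with array weights (1 higher) and 1 with the endothelial covariate (1 higher). Mfsd2a was 11.75 in mutants and 12.02 in controls (difference -0.28, limma adjusted p = 0.242), and Nos3, the nitric oxide synthase that caveolin-1 binds, was 11.00 and 11.42 in the same order (difference -0.42, limma adjusted p = 0.139).

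Of the Wnt and barrier genes, the programme under which Plvap is normally switched off in brain vessels, 5 of 20 tested fell and none rose, or 25%, against the same 1.92%. They were the Wnt-responsive factor Lef1 (difference -0.53, limma adjusted p = 0.0072), the proteoglycan Spock2 (difference -0.62, adjusted p = 0.0159), Reck, a partner of the Wnt7 receptor complex (difference -0.71, adjusted p = 0.0188), Sox17 (difference -0.48, adjusted p = 0.0194) and the amino acid transporter Slc7a5 (difference -0.50, adjusted p = 0.0263). In 12 of the 20 all mutant arrays lay below all control arrays, against 10.4% of all tested genes. This list too was chosen with earlier results of these data known, so both shares describe it and give no independent support. The count of 5 was 2 with arrays centred on their medians, 0 with arrays centred on the endothelial marker mean and 2 without mutant replicate 3 or without control replicate 2, 3 or 4, and 3 without mutant replicate 2. It was 13 with array weights, and 1 with the replicate number as a block and at a threshold of 0.01. On the same arrays Plvap differed by -0.09, with a 95% interval of 0.609-fold to 1.45-fold. Whether Plvap depends on these genes here was not tested. Cldn5, the main claudin of brain endothelium, differed by -0.18 (limma adjusted p = 0.314).

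Markers of other cells that make caveolae or that the beads can carry were mixed. Their lists were likewise chosen with earlier results of these data known. The counts below stand beside 1.92% of all tested genes called lower and 2.66% called higher. Of 17 pericyte markers, Art3 (1.81) and Higd1b (0.85) rose, with limma adjusted p of 0.000902 and 0.041. Pdgfrb, the gene that carries the knock-in, fell on its brighter probe set (-1.01, limma adjusted p = 0.00132). The number that rose was 4 without control replicate 2 and 1 without any other single array. The number that fell was 0 with probe sets averaged and 0 with probe sets without a letter suffix preferred. None of 10 smooth muscle markers passed in limma (1 at an unadjusted p under 0.05), with a median of -0.38, and among the brightest Cald1 differed by -0.20 and Acta2 by -0.49. Of 15 fibroblast and meningeal markers Twist1 rose (0.46, limma adjusted p = 0.0193), and none of the 15 was called without mutant replicate 3 or without control replicate 2 or 3. Their list mean was lowest on mutant replicate 1 and highest on mutant replicate 4, and its deviations had r = -0.894 with Ehd2 and -0.71 with Cav1 (8 arrays; -0.81 and -0.456 without the 2 arrays farthest from the median). Microglia and macrophage markers rose in 12 of 15, with Ctss, C1qa, Fcer1g and Aif1 higher by 2.26, 2.38, 2.18 and 3.31, and interferon response genes in 17 of 18, with Tap1 and Psmb8 higher by 4.79 and 5.12 and Ifit1 and Zbp1 by at least 7.86 and 6.09, counted from the filter level of 4 because their control arrays all lay below it (limma adjusted p of at most 0.00198 for these 8). Of the 18 interferon genes, 3 were below 4 on all control arrays and were tested only through the mutant group. None of 11 neuron markers or 10 astrocyte and radial glia markers passed in limma (2 and 0 at an unadjusted p under 0.05). Map2 and Stmn2 differed by 0.13 and 0.60, and Fabp7 and Gja1 by 0.13 and -0.09. With array weights, limma called 3 pericyte markers lower and 7 higher, 3 smooth muscle markers lower, 4 fibroblast and meningeal markers lower and 1 higher, and 1 neuron and 1 astrocyte and radial glia marker higher. The choroid plexus genes Ttr and Clic6 differed by 0.03 and -0.67. Ttr read 16.16 to 16.49, where the highest value of all probe sets is 16.49, so its small difference says little.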

How the data were processed

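The deposited values are log2 expression values, 1 for each probe set. Per the submitters' processing notes the authors used GCRMA; its version is not given in the sources used here, and the log2 scale was read from the values (2.18 to 16.49). GCRMA models background from probe sequence and normalizes by quantiles, and dim probe sets collect at the floor or at a low value of their own. Of 45101 probe sets, 34958 had 1 symbol in the platform annotation, 932 several and 9211 none; 18194 genes were named. A gene was its probe set with the highest mean, and genes above 4 on fewer than 4 arrays were left out, leaving 11446; single probe sets were fitted likewise (22310). Groups came from the sample titles; brains were separate, and litter and processing day are not given. Tests were two-sided in limma 3.58.1 (R 4.3.3; lmFit, eBayes) without covariates. On simulated data for this comparison (11446 genes, normal noise, 50 changed genes at each fold), 2% of 1.25-fold, 30% of 1.5-fold, 66% of 2-fold and 96% of 4-fold changes were recovered, with 3 false calls. The number of arrays, 4 per group, limits the precision. Named genes were the 7 members, up to 4 passing genes of smallest p in each list or its 2 brightest where none did, and the 5 closest to Plvap and to Cav1 by correlation of deviations. Other genes were named after their values were seen. The members and the 12 other lists were chosen with earlier results of these data known. Alternatives changed the filter, scaling, probe set choice, covariates, weights, variance model, threshold and arrays included. List genes without a probe set of a single symbol were not analysed here.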

Additional observations from a re-analysis of the deposited data

Results flagged for a closer look

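Among 26 sets of 4 arrays, 2 for each of the 13 tested probe sets, 3 had an end value whose gap to its neighbour exceeded Dixon's 95% critical share of the range, all 3 on probe sets of Cavin1. For values without ties, chance exceeds that share in about 1 of 20 sets. On the bright probe set, control replicate 1 read 12.265, while the other control arrays lay between 11.235 and 11.356. On the dim probe set 1453891_at, mutant replicate 3 read 4.074 and control replicate 3 read 4.41, while the other arrays of each group all read 4.089. With the other values tied, any departure exceeds the critical share, so these 2 cases say nothing about chance.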

How the results depend on the processing

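Cavin2 stayed negative in all 23 alternatives (-0.61 to -0.35) and kept its call in 16. The number of the 7 genes called lower, 1 in the fit reported, was 0 with median centring, endothelial centring, the mean of probe sets and a threshold of 0.01, and 2 with array weights and with the trended, robust model; leaving out 1 array gave 0 to 1, and none of the alternatives called any of the 7 higher. With the replicate number as a block it was 0 (Cavin2 -0.56, limma adjusted p = 0.099). Deviations of same-numbered arrays had r from -0.479 to 0.303, and no mutant array correlated best with the control of its own number. Sex and tissue content also vary between arrays, so these values cannot show whether same-numbered arrays shared a litter or processing day. With that block 38 of all tested genes were lower. Cav1 and Cav2 stayed negative in all 23. Signs of the other genes, none of which passed, turned as follows. Plvap was 0.0009 with median centring, 0.12 with endothelial centring, 0.052 with Y-linked genes as a covariate, 0.12 with the choroid plexus covariate, and ran from -0.36 to 0.064 without 1 array (0.0024 without mutant replicate 1, 0.064 without control replicate 1, 0.05 without control replicate 4). Cavin1 was 0.0057 after a second quantile normalization, 0.084 with median and 0.20 with endothelial centring, 0.10 with the Y-linked covariate, 0.21 with array weights, 0.016 with the choroid plexus and 0.57 with the endothelial covariate, and ran from -0.13 to 0.24 without 1 array. Ehd2 was 0.10 with endothelial centring, 0.24 with array weights, 0.35 with the endothelial covariate and ran from -0.23 to 0.10 without 1 array, and Cavin3 was 0.067 with endothelial centring. The covariates from marker lists were chosen after seeing the data, and the cause of these turns was not tested. The Y-linked mean was 2.221 on mutant replicate 2 and 2.182 on control replicates 1 and 4. It was 8.021 to 8.215 on the other arrays, so this covariate reads as sex, which was unequal between the groups. Those control arrays were also the highest for Plvap in their group, and the part of sex was not tested. Over all tested genes, 220 lower and 304 higher in the fit reported, the lower count was 135 without a filter, 115 with median and 12 with endothelial centring (392 higher), 142 with the Y-linked covariate, 37 at 0.01, 569 with the endothelial covariate and 65 to 237 without 1 array; the higher count was 189 to 302 without 1 array, and array weights gave 2263 lower and 895 higher. The filter left 3 of the 16 probe sets untested. Cavin1 1421431_at and Ehd2 1424158_at lay within 0.5 of the floor on all 8 arrays, and Cav2 1425955_at read 3.79 on most.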
